A study of Sus scrofa with 9 samples.

Results

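Transcripts of 6 genes of the BMP and TGF-beta pathways were followed in porcine granulosa cells, the somatic cells of the ovarian follicle that nurse the oocyte: the ligands GDF6, BMP4, TGFB2 and TGFB3, and the intracellular proteins SMAD5 and SMAD6. They were taken by gene symbol from a deposited table of 1081 rows, and each symbol matched 1 row. The study sequenced RNA from 9 libraries of primary wild-type granulosa cells, with 3 libraries in each group. The groups were cells labelled control, cells given sulforaphane (a plant isothiocyanate, found in broccoli, that switches on NRF2) and cells given follicle-stimulating hormone (FSH). All groups share the tissue, the cell type and the genotype. The labels state no dose, no duration, no breed or age of the animals, and not whether replicate libraries are separate cultures, so p-values measure only the spread between these samples, which may be technical.

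Ligands of this family bind pairs of type I and type II receptor kinases. BMPs and some GDFs, GDF6 among them, pass their signal to SMAD1, SMAD5 and SMAD9. TGF-beta isoforms act mainly through SMAD2 and SMAD3, and SMAD4 joins either set. SMAD6 is an inhibitory SMAD that blocks mainly the BMP branch and is itself induced by BMP signalling in many cell types. In the ovary, ligands of the family come from the oocyte, theca and granulosa cells, and in cultured rat granulosa cells BMPs restrain the progesterone output that FSH evokes.

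Library depth, computed by comparing counts with FPKM, ran from 16.6 to 22.3 in units of 1e6 fragments. The rows of the table held 6.72% to 8.38% of that depth, or 1217490 to 1756337 counts per library. Of the 1081 rows, 919 passed the filter of at least 1 FPKM (a fragment count corrected for transcript length and library depth) in at least 3 of the 9 libraries, the 6 genes among them. TGFB2 had only 1 of 3 control libraries at or above 1 FPKM and so passed through the treated groups, where it was higher. Sulforaphane replicate 3 stood further from its own group than any other library: its mean root mean square distance on log2(FPKM + 1) was 0.349, against 0.260 and 0.279 for the other sulforaphane libraries and 0.143 to 0.180 for the control and FSH libraries. Markers of granulosa cells were represented by 6 of 15 listed genes (INHBA, AMHR2, FST, HSD17B1, GJA1 and KITLG), with a summed level of 393 to 399 FPKM in controls, 576 to 716 with sulforaphane and 779 to 812 with FSH. GJA1 made up most of that sum, at means of 323, 583 and 613 FPKM, and the markers went both ways: 3 were higher and 3 lower with sulforaphane, and 5 higher and 1 lower with FSH. The remaining granulosa markers, and all listed markers of leukocytes and oocytes, were not analysed here.

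GDF6, a BMP-family ligand first known for its part in skeletal joint formation, was the gene of the 6 with the largest difference from control. It lies on chromosome 4 from 40473015 to 40491142 (Sscrofa11.1, protein-coding gene, NCBI gene 110260254). In the 3 control libraries GDF6 stood at 10.7, 10.1 and 12.6 FPKM. With sulforaphane it stood at 0.91, 1.32 and 1.12 FPKM, and with FSH at 2.02, 2.07 and 2.76 FPKM. The 3 groups did not overlap, with the controls highest and the sulforaphane libraries lowest. The mean fell from 11.14 ± 1.31 FPKM (SD, n = 3) in controls to 1.12 ± 0.205 FPKM with sulforaphane, a log2 fold change of -3.32 ± 0.168 (SE; edgeR adjusted p = 1.01e-08), or 9.96-fold lower. With FSH the mean was 2.28 ± 0.414 FPKM, 4.84-fold lower than in controls (log2 fold change -2.28 ± 0.155, SE; edgeR adjusted p = 1.04e-07). Counted from the lowest log2 fold change among the 919 tested genes, GDF6 was at place 4 with sulforaphane and at place 3 with FSH. The counts behind the lowest levels were 59 to 90 per sulforaphane library, compared with 717 to 842 in controls.

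BMP4, a BMP ligand made by theca cells in the rodent ovary, is on chromosome 1 (183415989 to 183422888, protein-coding, NCBI gene 100113425). Controls were at 30.1, 26.7 and 27.3 FPKM, the highest mean of the 6 genes in that group. The sulforaphane libraries were at 11.3, 13.2 and 16.5 FPKM and the FSH libraries at 15.6, 14.5 and 15.9 FPKM. Every treated library lay below every control library, while the sulforaphane and FSH ranges overlapped. BMP4 was 2.07-fold lower with sulforaphane (log2 fold change -1.05 ± 0.124, SE; edgeR adjusted p = 8.97e-06) and 1.84-fold lower with FSH (-0.88 ± 0.123, SE; adjusted p = 4.81e-05). GDF6 therefore changed more than BMP4 in the same libraries: the GDF6 to BMP4 ratio was 0.357 to 0.462 in the controls, 0.130 to 0.173 with FSH and 0.0680 to 0.0999 with sulforaphane. This ratio is taken within a library and does not depend on how libraries are scaled to each other.

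**Figure D1:**
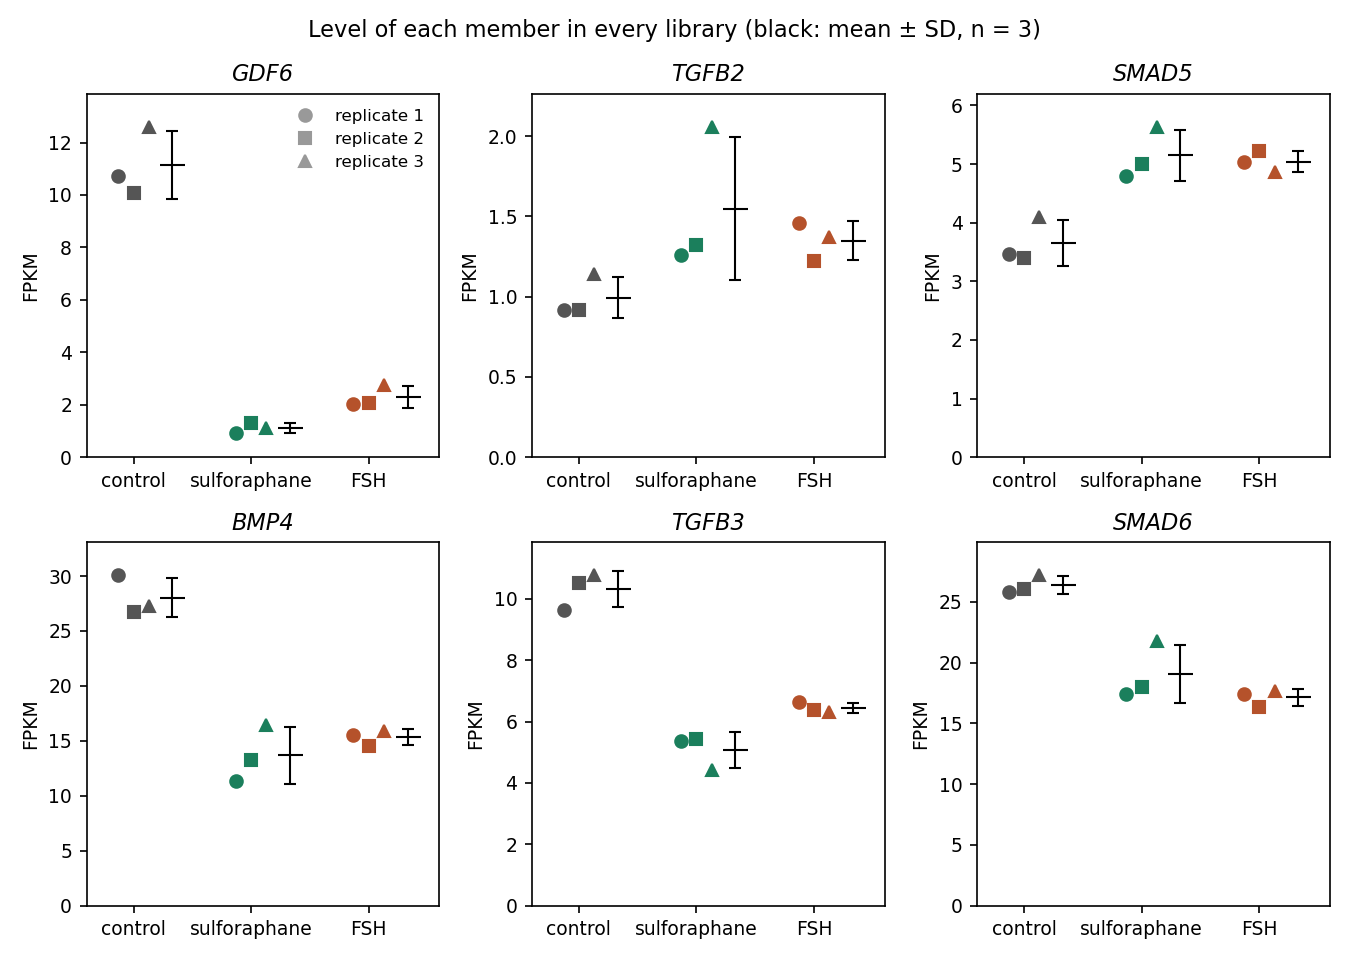
FPKM (vertical axes, each starting at 0) of the 6 genes in each of the 9 libraries, by group. Point shapes give the replicate number and the black marks the mean ± SD of 3 libraries; GDF6 drops from 10.1 to 12.6 FPKM in controls to 0.91 to 1.32 with sulforaphane, and TGFB2 in sulforaphane replicate 3 is at 2.06 FPKM, above the other sulforaphane libraries.

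The TGF-beta isoforms differed in direction, with TGFB3 lower and TGFB2 higher after treatment. TGFB3, one of the 3 mammalian TGF-beta isoforms, lies on chromosome 7 from 99133873 to 99162239 (protein-coding, NCBI gene 397400) and overlaps the annotated gene IFT43. The labels name no strand-specific step, so reads from the shared stretch cannot be told apart. TGFB3 stood at 9.65, 10.5 and 10.8 FPKM in controls, at 5.38, 5.43 and 4.41 FPKM with sulforaphane, and at 6.65, 6.37 and 6.33 FPKM with FSH. None of the 3 groups overlapped another, in the same order as for GDF6. The fall was 2.10-fold with sulforaphane (log2 fold change -1.07 ± 0.109, SE; edgeR adjusted p = 2.76e-06) and 1.57-fold with FSH (-0.65 ± 0.107, SE; adjusted p = 1.66e-04).

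TGFB2, an isoform that depends on the co-receptor betaglycan (TGFBR3) for efficient receptor binding, was the lowest of the 6 genes in controls and with FSH. Its gene spans chromosome 10 from 8306136 to 8435307 (protein-coding, NCBI gene 397084). Control libraries were at 0.92, 0.92 and 1.14 FPKM, sulforaphane libraries at 1.26, 1.32 and 2.06 FPKM, and FSH libraries at 1.46, 1.22 and 1.37 FPKM. All treated libraries were above all controls, with sulforaphane replicate 3 the highest, and the treated groups overlapped. Because TGFB2 passed the filter through its treated libraries, a rise against control was built into its being tested, and the values below describe it. TGFB2 was 1.72-fold higher with sulforaphane (log2 fold change 0.79 ± 0.226, SE; edgeR adjusted p = 0.00526), which became a log2 fold change of 0.47 without sulforaphane replicate 3. With FSH it was 1.47-fold higher (0.56 ± 0.229, SE; adjusted p = 0.0323). The FSH call rested on 58 to 102 counts per control or FSH library and ended in the limma fits on FPKM and when any 1 of the control libraries or FSH replicate 1 or 3 was left out, with adjusted p between 0.0541 and 0.120.

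The ratio between these isoforms also differed between the groups. TGFB3 exceeded TGFB2 by 9.46 to 11.4 times in the control libraries, by 4.56 to 5.22 times with FSH and by 2.14 to 4.27 times with sulforaphane. The 3 ranges did not overlap, and the lowest ratio was that of sulforaphane replicate 3. A rise of TGFB2 against control was built into its being tested, so its part in the lower treated ratios was built in too. Both genes also had control and treated ranges without overlap, in opposite directions, so the ratio had to separate controls from treated libraries. The ratio is given as a description. Summed over the 4 ligands, the level was 50.5 ± 1.95 FPKM in controls (SD, n = 3), 21.4 ± 2.597 with sulforaphane and 25.4 ± 1.12 with FSH. GDF6 made up 22.04% ± 1.99 of that sum in controls, 5.22% ± 0.849 with sulforaphane and 8.96% ± 1.34 with FSH. BMP4 kept the largest share in all 3 groups, with means from 55.5% to 63.5%.

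The SMADs also diverged. SMAD5, a receptor-activated SMAD of the BMP branch, is on chromosome 2 (138287635 to 138344092, protein-coding, NCBI gene 100624262). It stood at 3.46, 3.39 and 4.10 FPKM in controls, at 4.80, 5.0 and 5.64 FPKM with sulforaphane, and at 5.04, 5.23 and 4.86 FPKM with FSH. All treated libraries exceeded all controls, and the treated groups overlapped. SMAD5 rose 1.41-fold with sulforaphane (log2 fold change 0.49 ± 0.116, SE; edgeR adjusted p = 0.00157) and 1.29-fold with FSH (0.37 ± 0.117, SE; adjusted p = 0.00927). At 0.3695 the FSH change was among the smallest of the tested genes, 99% of which exceeded 0.3702 in absolute value. The ratio of mean FPKM between FSH and control was 1.38.

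SMAD6, on chromosome 1 from 164652602 to 164735084 (protein-coding, NCBI gene 100152069), had the most counts of the 6 genes, with 1725 to 3434 per library. The control libraries were at 25.8, 26.0 and 27.2 FPKM, the sulforaphane libraries at 17.4, 18.0 and 21.8 FPKM, and the FSH libraries at 17.4, 16.4 and 17.7 FPKM. Every treated library was below every control, and sulforaphane replicate 3 was the highest of the treated libraries. With FSH SMAD6 fell 1.54-fold (log2 fold change -0.62 ± 0.0946, SE; edgeR adjusted p = 9.11e-05). With sulforaphane it fell 1.38-fold relative to library depth (-0.47 ± 0.0944, SE; adjusted p = 5.42e-04). That call ended with median-ratio scaling (-0.11, adjusted p = 0.195) and the sign turned with TMM scaling (0.0029, adjusted p = 0.976).

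SMAD6 exceeded SMAD5 by 6.63 to 7.68 times in the control libraries, by 3.59 to 3.86 times with sulforaphane and by 3.13 to 3.63 times with FSH. The ratio was thus lower in all 6 treated libraries than in any control, and the treated groups overlapped. The separation from control follows from SMAD6 lying lower and SMAD5 higher in all treated libraries. Ranges without overlap against control were found for 96% of tested genes with sulforaphane and 98.7% with FSH. This ratio of SMAD6 to SMAD5 transcripts holds at any scaling between libraries, including those under which SMAD6 alone did not pass with sulforaphane. SMAD5 is not the only activating SMAD of the BMP branch. SMAD9 had higher means, of 21.5 FPKM in controls, 44.0 with sulforaphane and 16.5 with FSH, and is not part of this ratio.

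**Figure D2:**
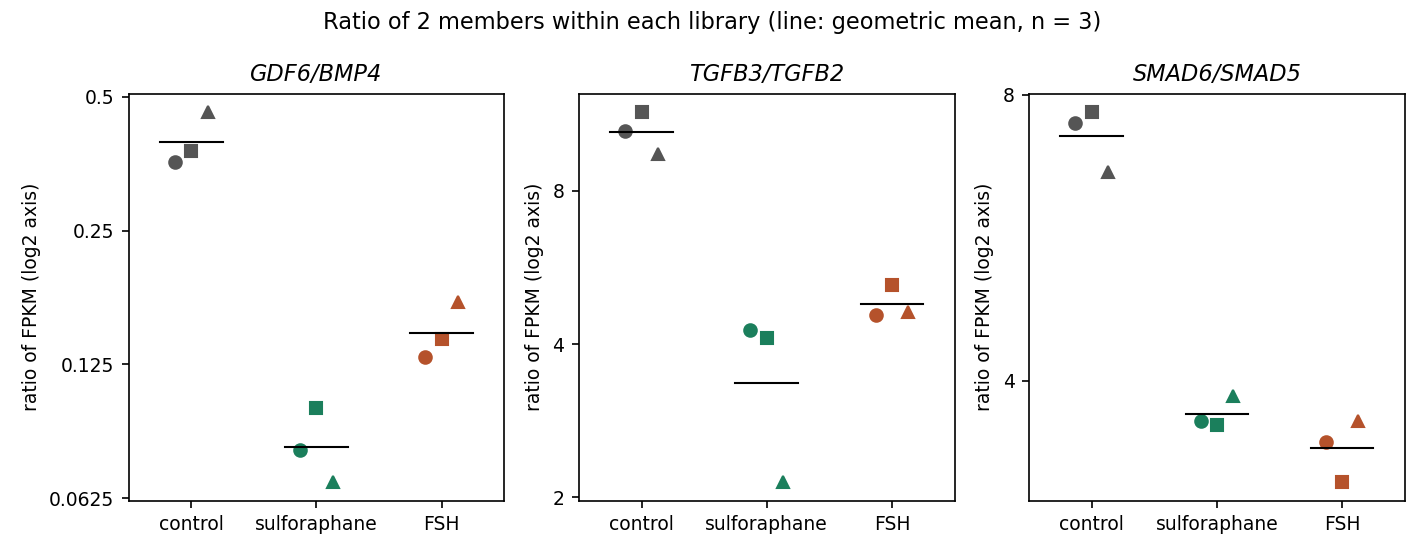
Ratio of FPKM of GDF6 to BMP4, TGFB3 to TGFB2 and SMAD6 to SMAD5 within each of the 9 libraries (log2 axes); lines are geometric means of 3 libraries and point shapes the replicate number. All control libraries lie above all treated libraries in each panel, for example 6.63 to 7.68 against 3.13 to 3.86 for SMAD6 to SMAD5. For TGFB3 to TGFB2 and SMAD6 to SMAD5 this follows from the first gene lying lower and the other higher in all treated libraries.

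For TGFB2 and SMAD5 the level per length and the count did not track each other exactly. The transcript length implied by count, FPKM and depth ran from 2.89 to 3.81 kb for TGFB2 and from 4.43 to 5.91 kb for SMAD5, whose longest value was in control replicate 2. For SMAD6 it was 6.36 kb in every library, and for GDF6 it stayed between 3.59 and 3.62 kb. For BMP4 it ran from 1.90 to 1.97 kb and for TGFB3 from 2.75 to 3.01 kb. The RefSeq annotation lists 6 transcripts for TGFB2, 5 for BMP4, 4 for SMAD5, 3 for TGFB3 and 1 each for GDF6 and SMAD6. Which transcripts were counted was not tested.

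By level the 6 genes changed places. In controls BMP4 and SMAD6 led with overlapping ranges, GDF6 and TGFB3 followed with overlapping ranges, and SMAD5 and TGFB2 were lowest and separate. With sulforaphane SMAD6 led, BMP4 was next without overlap, SMAD5 and TGFB3 overlapped at means of 5.15 and 5.07 FPKM, and TGFB2 and GDF6 overlapped at the bottom. With FSH the order was SMAD6, BMP4, TGFB3, SMAD5, GDF6 and TGFB2, and no neighbours in that order overlapped. GDF6 went from above 66.9% of the tested genes in controls to above 16.4% with sulforaphane and 23.0% with FSH.

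All 6 genes passed the threshold (adjusted p of 0.05) against control with each treatment, 4 lower and 2 higher in both comparisons, in the fit on library depths. TGFB2 counts among the rises, here and under the other scalings below, although a rise was built into its being tested. Other settings ended the SMAD6 call with sulforaphane and the TGFB2 call with FSH, as given above. This has to be read against the table itself: 99.6% of the tested genes passed in sulforaphane against control and 97.9% in FSH against control. Falls made up 65.3% and 42.7% of the tested genes, and rises 34.3% and 55.3%. With sulforaphane this was 315 genes higher and 600 lower, which became 317 and 296 with TMM factors and 317 and 369 with median-ratio factors. The control and treated ranges did not overlap for any of the 6 genes, as for 96% of tested genes with sulforaphane and 98.7% with FSH. That all 6 genes passed against control is thus close to the background, and both comparisons use the same 3 control libraries. Over the 919 tested genes the median of the log2 fold changes was -0.56 with sulforaphane and 0.41 with FSH. Rows with small changes against control are missing, so each median depends on whether more rows rose or fell. Neither median is a neutral reference, and distances to it are given as a description. With TMM factors the sulforaphane changes became -2.84 for GDF6, -0.58 for BMP4, -0.59 for TGFB3, 0.97 for SMAD5 and 1.25 for TGFB2, and with median-ratio factors -2.95, -0.70, -0.70, 0.85 and 1.13, all past the threshold. Relative to the medians with library depths GDF6 was at -2.75 and -2.68, BMP4 at -0.49 and -1.29, TGFB3 at -0.51 and -1.06, SMAD6 at 0.09 and -1.03, SMAD5 at 1.05 and -0.04, and TGFB2 at 1.35 and 0.15.

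**Figure D3:**
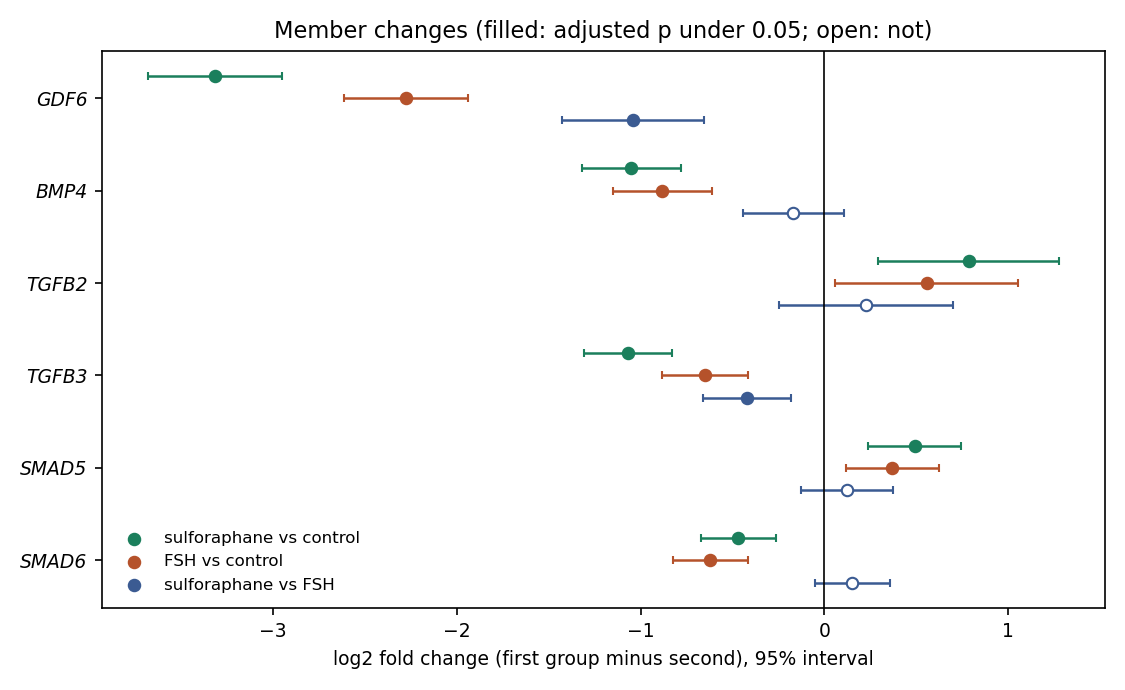
Log2 fold change (horizontal axis, first group minus second) of the 6 genes in the 3 comparisons, with 95% intervals from the edgeR fit of 9 libraries; filled points passed an adjusted p of 0.05. GDF6 at -3.32 and -2.28 lies furthest from 0, and GDF6 and TGFB3 are the filled points for sulforaphane against FSH.

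The direct comparison contrasts the treatments with each other, in a fit whose spread and filter the controls also inform. Here 55.7% of tested genes passed between sulforaphane and FSH, and 2 of the 6 genes did, both lower with sulforaphane. GDF6 was 2.06-fold lower with sulforaphane than with FSH (log2 fold change -1.04 ± 0.178, SE; edgeR adjusted p = 1.96e-04, without overlap of the groups), and a fit of the sulforaphane and FSH libraries alone gave adjusted p = 0.00127. TGFB3 was 1.34-fold lower (-0.42 ± 0.111, SE; adjusted p = 0.00530, also without overlap, and adjusted p = 0.0156 in the fit without controls). Lower levels with sulforaphane made up 42.8% of all tested genes in this comparison, higher ones 12.9%, and 59.4% of tested genes had groups without overlap. Of all tested genes 26.8% had a lower log2 fold change than GDF6 and 40.9% a lower one than TGFB3.

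For the other 4 genes the treatments did not differ beyond the threshold. The 95% interval of the ratio of sulforaphane to FSH was 0.736 to 1.08 for BMP4, 0.844 to 1.62 for TGFB2, 0.915 to 1.295 for SMAD5 and 0.964 to 1.28 for SMAD6 (adjusted p of 0.294, 0.422, 0.414 and 0.203, edgeR). BMP4 passed when sulforaphane replicate 3 was left out (log2 fold change -0.33, adjusted p = 0.00316). The estimate for TGFB2 turned negative in the same fit (-0.08, adjusted p = 0.701).

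Scaling decided several of these calls. Between sulforaphane and FSH the median over the whole table was a log2 fold change of -0.18 with library depth, 0.12 with TMM factors and 0.19 with median-ratio factors, and the tested genes split into 119 higher and 393 lower, 320 and 327, and 388 and 315. GDF6 remained lower in each, at -0.74 (adjusted p = 0.00240) with TMM and -0.67 (adjusted p = 0.00407) with median-ratio factors. TGFB3 did not pass at -0.11 and -0.04 (adjusted p of 0.413 and 0.790), whereas SMAD5, SMAD6 and TGFB2 passed as higher with sulforaphane, at 0.42, 0.45 and 0.52 with TMM factors. A scaling factor shifts all genes of a library alike, so the distance to the median of the table is nearly fixed by construction: GDF6 was at -0.86 from it, SMAD6 at 0.33 and BMP4 at 0.01. These factors come from rows of a table in which nearly all genes differed from control.

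**Figure D4:**
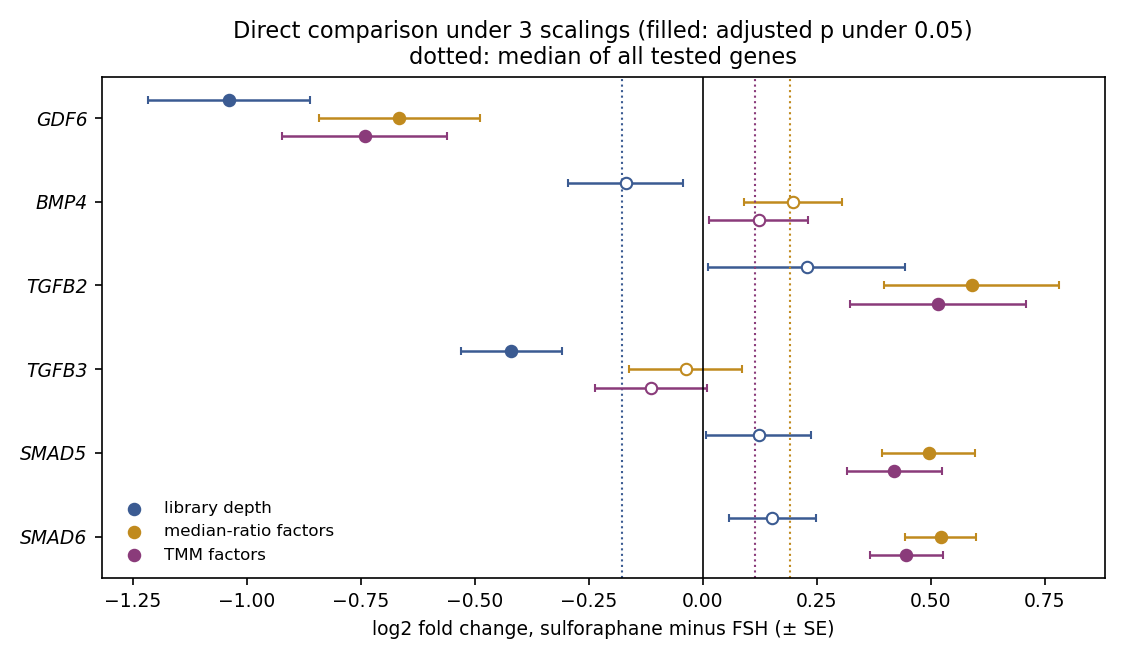
Log2 fold change between sulforaphane and FSH (± SE) of the 6 genes under 3 scalings between libraries; dotted lines are the medians of all tested genes and filled points passed an adjusted p of 0.05. GDF6 is filled and below 0 under each scaling, whereas TGFB3 is filled with library depth alone.

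Other genes of the pathway were taken from a list of 126 symbols in 6 roles. The table held 19 of them, all tested, of which 13 are not among the 6 genes. Of these 13, 3 were higher and 10 lower with sulforaphane, and 6 were higher and 7 lower with FSH, all past the threshold as nearly every row was. Their median log2 fold change was -0.66 with sulforaphane and -0.38 with FSH, against -0.56 and 0.41 over all tested genes. All these medians depend on whether more genes rose or fell, since rows with small changes are missing. Between the treatments 8 were lower and 1 higher with sulforaphane and 4 did not pass, beside 42.8% lower and 12.9% higher among all tested genes. That split became 7 lower and 3 higher with TMM factors and 5 lower and 3 higher with median-ratio factors.

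INHBA, the activin A subunit and the only further ligand of the list in the table, went in opposite directions: 43.1 ± 3.18 FPKM in controls, 27.4 ± 1.93 with sulforaphane and 123.2 ± 9.47 with FSH. Activin uses the SMAD2 and SMAD3 branch. AMHR2, the receptor of anti-Müllerian hormone, which shares the BMP SMADs, fell with both treatments, from 2.57 ± 0.329 to 0.553 ± 0.0473 FPKM with sulforaphane and to 1.103 ± 0.179 with FSH. SMAD9, the third BMP-branch SMAD, stood at 21.5 ± 4.35 FPKM in controls, 44.0 ± 6.65 with sulforaphane and 16.5 ± 0.952 with FSH, and was 2.67-fold higher with sulforaphane than with FSH (log2 fold change 1.42 ± 0.150, SE; edgeR adjusted p = 2.97e-06). SMAD5, by comparison, rose with both treatments. The FSH fall of SMAD9 (-0.38, adjusted p = 0.0276) did not pass with TMM factors (adjusted p = 0.155).

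Among proteins that bind or process the ligands, FST, the follistatin that traps activins and binds some BMPs, rose from 19.8 ± 1.13 FPKM to 34.6 ± 7.04 with sulforaphane and 50.2 ± 2.02 with FSH. FURIN, a protease that cleaves TGF-beta family precursors, rose 1.61-fold and 1.48-fold. BMPER, a secreted BMP modulator, fell from 10.5 ± 1.53 FPKM to 3.77 ± 0.714 and 5.57 ± 0.650. LTBP2, a matrix protein of the latent TGF-beta binding protein family, fell 2.70-fold and 3.40-fold. FBN1, the microfibril protein that anchors such complexes, was 1.57-fold lower with sulforaphane and 1.34-fold higher with FSH. Counts of INHBA, AMHR2, BMPER and LTBP2 were not all whole, for a reason not stated in the sources used here, whereas the counts of the 6 genes were whole.

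The 4 genes in the table listed as response genes (ATOH8, JUNB, COL1A1 and SNAI2) were all lower with sulforaphane, as were 65.3% of tested genes. With FSH 3 were lower and 1 higher, beside 42.7% lower and 55.3% higher among tested genes. SMAD6 and PMEPA1, which the pathway can also induce, were listed under other roles. With library depths SMAD6 was lower with both treatments, and PMEPA1 was lower with sulforaphane and higher with FSH. ATOH8, a BMP-induced transcription factor, stood at 6.17 ± 0.376 FPKM in controls, 2.61 ± 0.617 with sulforaphane and 2.73 ± 0.230 with FSH. SNAI2, a transcription factor induced by TGF-beta, and COL1A1, a collagen chain, were also lower with both treatments. SNAI2 stood at 7.66 ± 0.774 FPKM in controls, 3.05 ± 1.97 with sulforaphane and 3.84 ± 0.541 with FSH. Its sulforaphane SD was thus large beside the mean. COL1A1 was at 71.4 ± 3.61, 31.7 ± 2.70 and 47.0 ± 1.05 FPKM. JUNB was at 12.01 ± 0.597 FPKM in controls, 7.64 ± 1.70 with sulforaphane and 21.4 ± 0.758 with FSH, and PMEPA1, a TGF-beta-induced inhibitor of SMAD signalling, at 37.4 ± 0.727, 25.6 ± 4.76 and 59.5 ± 2.25 FPKM. With TMM factors the sulforaphane falls of INHBA, FBN1, PMEPA1 and JUNB did not pass (adjusted p of 0.0881, 0.0870, 0.761 and 0.134).

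**Figure D5:**
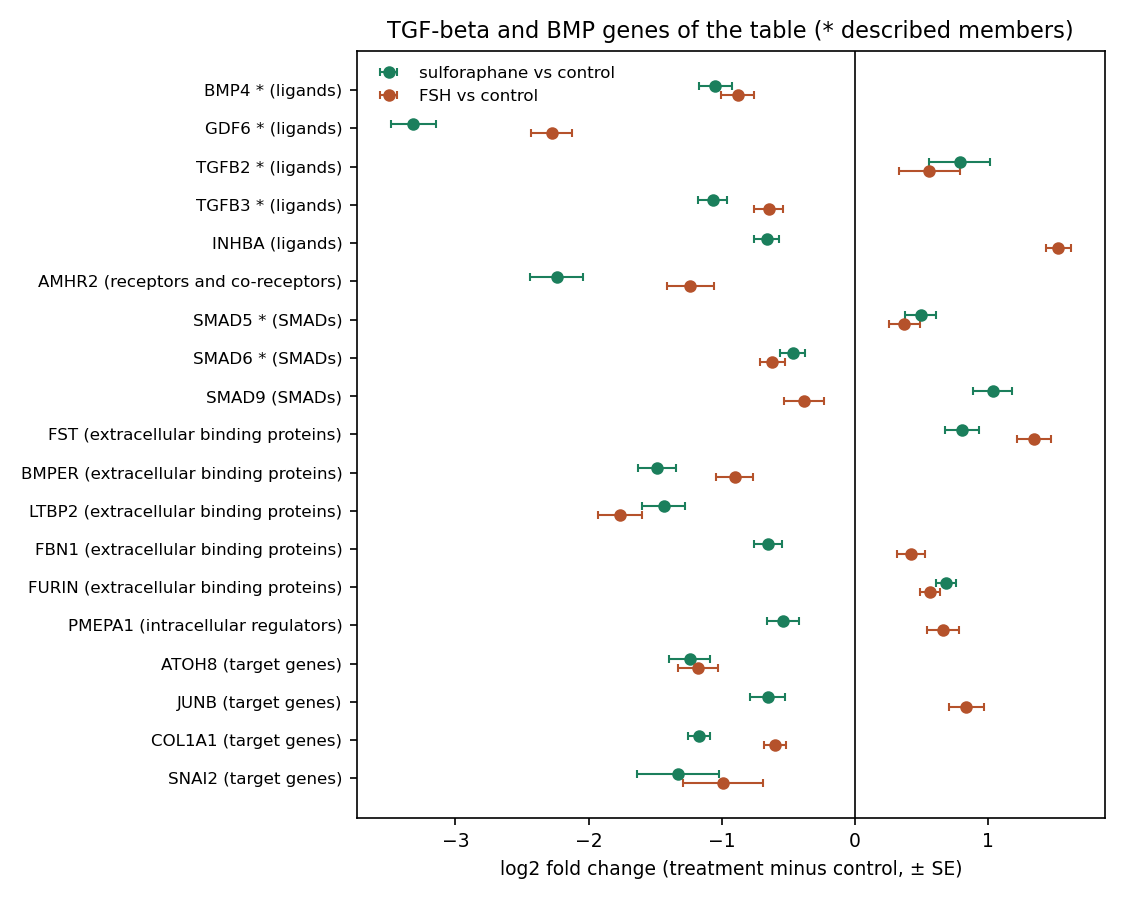
Log2 fold change against control (± SE) of the 19 tested TGF-beta and BMP genes of the table, by role, for sulforaphane and FSH; asterisks mark the 6 genes described. INHBA, SMAD9, FBN1, PMEPA1 and JUNB have the treatments on opposite sides of 0, while the 6 genes have both on the same side, apart from SMAD6 with sulforaphane under TMM factors (0.0029, not plotted).

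The genes with the most similar profile were sought by the root mean square difference between centred log2(FPKM + 1) values over the 9 libraries, among 855 tested genes with a symbol. The nearest to GDF6 were LMOD1, a leiomodin of smooth muscle, at 0.280, and EDN1, the vasoconstrictor peptide endothelin 1, at 0.299, compared with a median distance of 1.05. LMOD1 went from 6.39 ± 0.658 FPKM in controls to 0.497 ± 0.129 with sulforaphane and 1.94 ± 0.144 with FSH. For BMP4 the nearest were ATF3, a stress-induced transcription factor (0.0812), and RCAN2, a regulator of calcineurin (0.105). TGFB3 was nearest to PDLIM1, an actin-associated LIM protein (0.0801), and PLPP2, a lipid phosphatase (0.0929).

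TGFB2 was nearest to LRRC4C (0.0726) and OSBPL6 (0.0782), and SMAD5 to the transcription factor FOXP1 (0.0482) and the methylcytosine dioxygenase TET3 (0.0567). SMAD6 was nearest to MXRA7 (0.0329) and the transcription factor KLF6 (0.0452). Among the 6 genes themselves the closest pair was TGFB2 and SMAD5 (0.104) and the most distant GDF6 and SMAD5 (1.26). The median distance to the candidate genes was 0.562 for BMP4, 0.475 for TGFB3, 0.451 for TGFB2, 0.465 for SMAD5 and 0.464 for SMAD6. Adding 1 shrinks changes at low levels. The TGFB2 change with sulforaphane was 0.34 in limma on log2(FPKM + 1), against 0.56 on log2(FPKM + 0.1). These distances take no account of how many genes share a profile of change against control.

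The summed smooth muscle markers, like GDF6, were highest in controls and lowest with sulforaphane. The stromal fibroblast and keratin sums given below had the same order. Single smooth muscle markers are not given here, apart from LMOD1, which was picked as nearest to GDF6. The summed level of the 6 of 9 listed markers in the table (ACTA2, MYH11, CNN1, LMOD1, DES and SMTN) was 7384 to 7679 FPKM in controls, 2356 to 2576 with sulforaphane and 3121 to 3183 with FSH, and none of them was at 0 in all libraries. The 3 of 10 stromal fibroblast markers (COL1A1, PDGFRB and THY1) summed to 85.4 to 91.6, 44.3 to 52.0 and 56.9 to 60.6 FPKM. The 3 of 8 surface epithelium keratins (KRT7, KRT8 and KRT18) summed to 154 to 157, 39.4 to 46.5 and 89.4 to 95.3 FPKM. For theca cells, CYP11A1 and LHCGR of 9 listed markers summed to 139 to 166, 74.9 to 138 and 530 to 611 FPKM. Both genes were also among the listed luteal markers, so their sum does not single out theca cells. Together with PTGFR, the luteal sum was 159.1 to 188.5, 84.7 to 154.5 and 564 to 655 FPKM. The only endothelial marker, KDR, was at 0.08 to 0.10, 0.87 to 1.67 and 0.25 to 0.36 FPKM. The part of these cell types in the levels of GDF6, BMP4 and TGFB3 was not tested, and in bulk RNA fewer cells of a type and less RNA per cell cannot be told apart.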

How the data were processed

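Per the labels' protocols, mRNA was captured on oligo(dT) beads and read on Illumina HiSeq. Tools in the submitters' processing notes are StringTie 1.3.1, HISAT2, Bowtie2 2.2.8, fastp, edgeR and DESeq2, with Sscrofa11.1 as build; their roles are not stated. The authors deposited FPKM and estimated counts (not whole in 143 of 1081 rows), per the file headers, while nothing used here states how the rows were chosen. For sulforaphane against control 99% of tested genes had an absolute log2 fold change over 0.386, for FSH against control over 0.370, and between the treatments over 0.00573, so rows with small differences from control are missing.

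Relative depth was taken from counts over FPKM in 354 genes (100 counts and 5 FPKM or more throughout), and absolute depth from 10 genes for which that quotient over the RefSeq gene length agreed within 0.1%. These depths served as library sizes. Estimated counts were rounded and tested with the quasi-likelihood test of edgeR 4.0.16 (R 4.3.3) in 1 fit of 9 libraries, with Benjamini-Hochberg adjustment over 919 genes; the common dispersion was 0.0119. The script was tested on simulated data. Alternatives used DESeq2 1.42.0 and limma 3.58.1. With 3 libraries against 3 the smallest exact permutation p is 0.1, so no exact test was used.

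The 6 genes, the pathway list and the markers were chosen with earlier results of these data known. Named genes are the 6, all tested genes of the pathway list and the 2 nearest profiles of each of the 6. All 1053 NCBI identifiers of the table matched the RefSeq gene table of Sscrofa11.1. Columns of another series numbered 0, and no 2 libraries were identical.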

Additional observations from a re-analysis of the deposited data

How the results depend on the processing

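Of 333 alternative values for the log2 fold changes of the 6 genes, 305 kept direction and side of the threshold, 13 fell short of it, 10 newly passed and 5 changed sign. The sign changes were SMAD6 for sulforaphane against control with TMM factors (0.0029), BMP4 for sulforaphane against FSH with TMM factors (0.123), median-ratio factors (0.198) and DESeq2 (0.198), and TGFB2 in that comparison without sulforaphane replicate 3 (-0.0845, in a range up to 0.400 over the libraries left out). Of the 6 genes, 4 passed between the treatments with TMM factors, median-ratio factors or DESeq2, in place of 2. A minimum mean of 5 FPKM left 489 genes, of which 489, 485 and 292 passed in sulforaphane against control, FSH against control and sulforaphane against FSH, because fewer genes were tested. GDF6, TGFB2 and SMAD5 had no value there, and 3, 3 and 1 of the other genes passed. Leaving out each library in turn gave 892 to 915, 857 to 919 and 470 to 593 genes past the threshold, and 6 to 6, 5 to 6 and 2 to 3 of the 6 genes.

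On log2(FPKM + 1) the mean log2 ratio of TGFB3 to TGFB2 was 2.51 in controls (3.38 without pseudocount) and 1.67 with FSH (2.26). That of GDF6 to BMP4 was -2.78 with sulforaphane (-3.61) and -2.32 with FSH (-2.76). That of SMAD6 to SMAD5 was 2.56 in controls (2.86), 1.70 with sulforaphane (1.89) and 1.59 with FSH (1.77). These shrink by construction, since 1 is added to low levels.

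Same-numbered libraries showed no consistent pairing: their deviations correlated between -0.181 and 0.211, and 2 of 9 pairs exceeded 0.1. The control and FSH pairs were all positive, and the control and sulforaphane pairs all negative. With 3 libraries per group this check cannot exclude a shared batch or culture. With a replicate block, 915, 903 and 505 genes passed and no call among the 6 genes changed. The smallest counts behind a value were 58 to 139 per library for TGFB2 and 59 to 90 per sulforaphane library for GDF6.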
